A study of Mus musculus with 6 samples.

Results

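CTCF binding was examined around 9 genes of growth control that were taken as early known CTCF targets. They were Myc, Cdkn2a, Cdkn2b, Trp53, Rb1, Tert, App, Bcl6 and Brca1. Their regions were taken as every row of the deposited region table that overlapped the annotated gene body or lay within 20 kb of it (mouse build mm9, GENCODE vM1). This gave 36 of 57662 regions, of which 2 counted for both Cdkn2a and Cdkn2b, since these genes are neighbours. A region was called a promoter region when it touched the 3000 bp upstream of the start of any annotated transcript of the gene, which held for 7 of the 36. The other 29 lay in exons, introns or flanks.

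The samples were mouse embryonic stem cells (ESCs), pluripotent cells from the early embryo, grown with serum and LIF, the factor that keeps them undifferentiated. All cells carried endogenous CTCF fused to a tag (EGFP and an auxin-inducible degron) that lets auxin trigger its degradation, and auxin had been given to remove it. WT_CTCF cells expressed an introduced wild-type CTCF in its place. MUT_CTCF cells expressed a CTCF with alanine in place of the threonine T668, so that this position cannot carry the sugar O-GlcNAc. Each genotype had 2 CTCF ChIP libraries and 1 input library, which was not analysed here. The cells of each genotype came from a picked clone, so genotype and clone cannot be told apart. The ChIP replicates were described as biological.

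CTCF is a zinc finger protein that reads a long, asymmetric DNA motif and, with cohesin, anchors chromatin loops and separates genes from their neighbours' enhancers. It was found as a factor that binds upstream of the Myc gene, and its sites near tumour suppressor genes are known as insulators between active and silent chromatin. Pluripotent cells divide fast, with Myc and telomerase active, the Rb1 protein largely held inactive and the Cdkn2a locus silent.

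For the regions at or near gene starts, the stretch that best matched the CTCF motif is shown first. The values below were measured on whole peaks and regions and not on these bases alone. The CTCF core motif, 13 letters long, was searched on both strands, and the core that matched best is in capitals with 8 bases on either side. Each reads 5′ to 3′ on the strand of its motif.
Myc, chr15:61814986-61814998, plus strand: ctctgtggCCAGTAGAGGGCAcacttact
Cdkn2b, chr4:88956539-88956551, minus strand: aggccttaCCGGCAGAGGGCGcacgagcg
Trp53, chr11:69392992-69393004, plus strand: ctccctggCCTGCAGAGGGCGcataattt
Tert, chr13:73764131-73764143, plus strand: ggggattcCCAGCTCAGGGCGaaaaggaa
App, chr16:85174029-85174041, minus strand: ccgaggctCCGCTAGGGGTCTctgtcggg
Bcl6, chr16:23991409-23991421, plus strand: acttttatCCCCATGGGGGCGctgcagag
The Myc core matched in full, those of Cdkn2b and Trp53 had 1 mismatch, that of Tert had 2, and those of App and Bcl6 had 3. With at most 1 mismatch the motif was in 22 of the 36 regions (61.1%), a share close to the 60.6% over all regions, while 4.44% of intervals of the same width placed 5000 bp to either side held it. The core in full was found in 2 of the 36, at Myc and in an intron of Bcl6, or 5.56%, while 12.7% of all regions held it. A match with at most 2 mismatches was in 83.3% of the 36 regions, 86.05% of all and 20.6% of the intervals to either side. The centre of the printed Tert core lay 54 bp from the mean of the peak summits, and those of the other printed cores 0.5 to 18.2 bp. The share of intervals with a match at 3 mismatches was not computed. A match describes the letters and does not show which base CTCF contacts.

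Fewer of the regions were called in MUT_CTCF than in WT_CTCF. A call means that a peak of the library's own list touched the region. The WT_CTCF libraries called 31 and 35 of the 36 regions, and the MUT_CTCF libraries 19 and 17. On average WT_CTCF had 33 ± 2.83 calls (SD, n = 2) and MUT_CTCF 18 ± 1.41 (SD, n = 2). The difference of -15 regions exceeded the spread between replicates. With 2 libraries against 2 the exact two-sided permutation test gave p = 0.333, which is the smallest it can give. Over all 57662 regions the WT_CTCF libraries called 49775 and 53876, and the MUT_CTCF libraries 33600 and 32382. Fewer calls in MUT_CTCF were therefore not particular to these genes. Of the 36, 17 were called in all 4 libraries, where 52.6% of all regions were. A further 12, or 33.3%, were called in both WT_CTCF libraries but in no MUT_CTCF library, compared with 19.5% of all regions. None was called in both MUT_CTCF libraries alone, a class that held 0.033% of all regions. The remaining 5 were called in 1 WT_CTCF library alone, and 2 in other combinations.

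**Figure D1:**
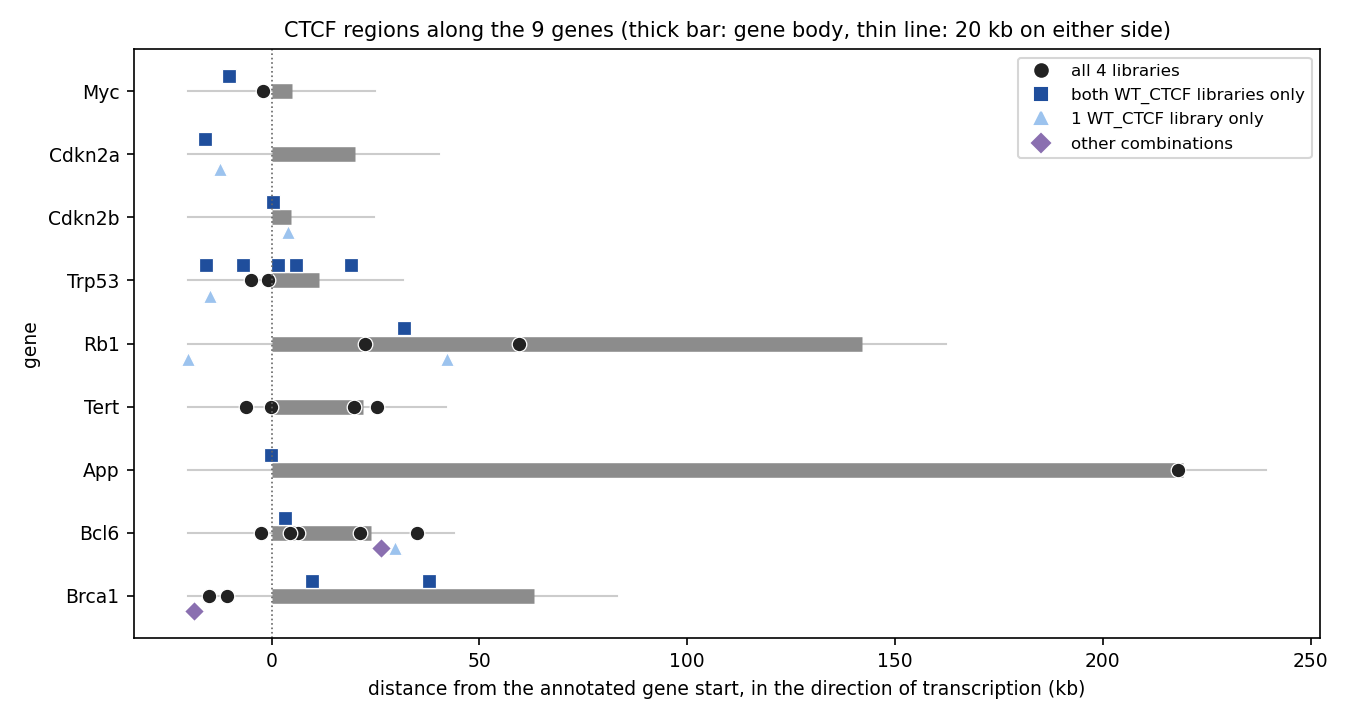
CTCF regions along the 9 genes, drawn as distance in kb from the annotated gene start in the direction of transcription. The symbol gives the libraries that called the region, and symbols of the WT_CTCF-only and other classes are moved up or down so that neighbours can be seen. All 4 regions of Tert were called in all 4 libraries, and the Cdkn2a and Cdkn2b rows hold none that was.

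The genes differed in how many of their regions were called in MUT_CTCF, but calls also went with signal. The regions called in all 4 libraries had a pooled mean, described below, of at least 78.8. Of the 19 others, all but 2 had one of at most 105. The genes were not compared at equal signal. Tert kept 4 of 4 regions in all libraries and Bcl6 5 of 8. Trp53 kept 2 of 8, with 5 called in both WT_CTCF libraries only, and Rb1 and Brca1 kept 2 of 5 each. Myc and App each had 1 region called in all 4 libraries and 1 called in both WT_CTCF libraries only. Among the promoter regions 5 of 7 were called in all 4 libraries and 2 in both WT_CTCF libraries only, compared with 51.1% and 22.5% of the promoter regions of all protein-coding genes. Among the 29 other regions the numbers were 12 and 10, compared with 52.8% and 19.1% of all regions outside such promoters. The sets are not alike, since some of the 29 touched the promoter of a neighbouring gene, Wrap53 near Trp53 or Nbr1 near Brca1. Such regions are left out of the shares of 52.8% and 19.1%. The WT_CTCF libraries called 7 and 7 promoter regions and the MUT_CTCF libraries 5 and 5 (exact two-sided permutation test, p = 0.333). Of the 7488 promoter regions of protein-coding genes, the WT_CTCF libraries called 6496 and 7058 and the MUT_CTCF libraries 4202 and 4086. By comparison, a protein-coding gene of the annotation had a median of 3 regions by the same rule (25th to 75th percentile, 1 to 5).

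Values are given next as the peak score, a number without unit that the authors' peak caller set on spike-in scaled coverage. Its definition and cutoff were not stated, and the lowest score in each list was 13. Where a library had several peaks in a region, the highest score was used. Each region also has a pooled mean, the authors' mean over the 4 libraries of the scaled reads in it. Neither value is a read count per library, and the read depth is unknown here. A lower score or a missing call therefore does not show that fewer reads lay in the region.

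Myc encodes a transcription factor that drives growth and division, and its promoter region (ENSMUSG00000022346.8, chr15:61814634-61815284) had its summit 1958 bp upstream of the gene start. Its scores were 952 and 1233 in WT_CTCF and 317 and 473 in MUT_CTCF, with a pooled mean of 296. Both MUT_CTCF scores lay below both WT_CTCF scores. The other Myc region, 10156 bp upstream of the start (chr15:61806685-61806963), scored 101 and 114 in WT_CTCF and was not called in MUT_CTCF. It had no core within 1 mismatch.

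Tert encodes the reverse transcriptase of telomerase, the enzyme that lengthens chromosome ends. The summit of its promoter region (ENSMUSG00000021611.7, chr13:73763840-73764390) lay 258 bp upstream of the gene start. It scored 491 and 419 in WT_CTCF and 191 and 156 in MUT_CTCF. A region on coding sequence, 19880 bp into the gene (chr13:73783939-73784584), scored 449 and 577 in WT_CTCF and 140 and 225 in MUT_CTCF. In this region, too, the groups did not overlap. Scores of 471 and 530 in WT_CTCF and of 225 and 250 in MUT_CTCF were found at 6167 bp upstream of the start (chr13:73757984-73758653), where the neighbouring gene Clptm1l is also annotated.

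Cdkn2b encodes p15, an inhibitor of the kinases CDK4 and CDK6, and Cdkn2a encodes p16, which does the same, and p19ARF, which stabilises p53. The region at the Cdkn2b start (ENSMUSG00000073802.4, chr4:88956275-88956819) covered its 5′ UTR and coding sequence, with the summit 396 bp downstream of the gene start and 15988 bp upstream of Cdkn2a (ENSMUSG00000044303.5). It counts as a non-promoter region by the rule, which looks only upstream. Its scores were 372 and 516 in WT_CTCF, and no peak was called in either MUT_CTCF library, although the pooled mean was 318. The second region of the locus, on the Cdkn2b 3′ UTR and coding sequence (chr4:88952956-88953120), scored 57 in WT_CTCF replicate 1 and was not called in the other 3 libraries. No region touched the Cdkn2a gene body.

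Trp53 encodes p53, the transcription factor that halts the cell cycle after DNA damage. Its promoter region (ENSMUSG00000059552.6, chr11:69392624-69393994) was the strongest of the set by far and ranked 12 among all regions by pooled mean, at 3340. The region overlapped the 5′ UTR and an exon of a transcript without coding sequence, and also the neighbouring gene Wrap53, which is transcribed from the opposite strand. Its scores were 13857 and 14956 in WT_CTCF and 11205 and 11154 in MUT_CTCF. The groups did not overlap, and the ratio of MUT_CTCF to WT_CTCF scores was high for the set, at a level that differed from that of the App 3′ end by less than its error. The next by pooled mean, 4937 bp upstream of the Trp53 start (chr11:69388683-69389183), scored 295 and 562 in WT_CTCF and 118 and 187 in MUT_CTCF, so that the WT_CTCF replicates themselves stood apart.

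The remaining Trp53 regions were weak and belonged to WT_CTCF. A promoter region of an internal transcript (chr11:69399481-69399813), in an intron, scored 45 and 30 in WT_CTCF and was not called in MUT_CTCF. The region 7700 bp past the gene end, in Atp1b2 (chr11:69412811-69413254), scored 101 and 177 in WT_CTCF and was likewise not called in MUT_CTCF. The other 4 had WT_CTCF scores of 19 to 50 and no call in MUT_CTCF.

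Rb1 encodes the retinoblastoma protein, which holds E2F factors in check before DNA replication. No promoter region lay at the annotated gene start. Its promoter region (ENSMUSG00000022105.6, chr14:73665864-73666529) belonged to an internal transcript, with the summit 2048 bp upstream of that start and 59453 bp into the gene. It scored 758 and 1048 in WT_CTCF and 429 and 503 in MUT_CTCF. An intronic region 22440 bp into the gene (chr14:73702945-73703480) scored 471 and 504 in WT_CTCF and 152 and 317 in MUT_CTCF. The replicates of MUT_CTCF differed more here than those of WT_CTCF. A region 20066 bp upstream of the start (chr14:73745554-73745811) scored 90 in WT_CTCF replicate 2 and was not called elsewhere, and the 2 other regions of the gene were also called in WT_CTCF alone.

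Brca1 encodes a protein needed to repair broken DNA by homologous recombination. None of its 5 regions (ENSMUSG00000017146.6) was a promoter region. The strongest lay 10676 bp upstream of the Brca1 start within the neighbouring gene Nbr1 (chr11:101423474-101424371), with a pooled mean of 804. Its scores were 3699 and 3453 in WT_CTCF and 1888 and 1715 in MUT_CTCF, without overlap. An intronic region 37869 bp into the gene (chr11:101375254-101375995) scored 176 and 126 in WT_CTCF and was not called in MUT_CTCF. The weaker regions had scores of 28 to 244 in WT_CTCF and 39 to 76 in MUT_CTCF where they were called.

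Bcl6 encodes a transcriptional repressor known from germinal centre B cells and lymphoma. Its promoter region (ENSMUSG00000022508.5, chr16:23991013-23991756), 2488 bp upstream of the start, scored 1589 and 1516 in WT_CTCF and 899 and 1000 in MUT_CTCF. The highest pooled mean of the gene, 793, was in a wide intronic region 6411 bp from the start (chr16:23982077-23983895), which scored 1075 and 1259 in WT_CTCF and 638 and 565 in MUT_CTCF. The nearby intronic region with the complete core (chr16:23984062-23984881) scored 731 and 848 in WT_CTCF and 489 and 461 in MUT_CTCF. In none of these did the groups overlap. Of the other 5 Bcl6 regions, 2 were called in all 4 libraries.

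App encodes the amyloid precursor protein, whose promoter carries a known CTCF site. Its promoter region (ENSMUSG00000022892.9, chr16:85173873-85174330), on the 5′ UTR with the summit 74 bp upstream of the start, scored 458 and 355 in WT_CTCF and was not called in MUT_CTCF, with a pooled mean of 270. At the other end of the gene, on the 3′ UTR and coding sequence (chr16:84955472-84956143), the scores were 1300 and 1462 in WT_CTCF and 1074 and 1056 in MUT_CTCF. The 2 ends of App thus fell in different classes of calls.

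**Figure D2:**
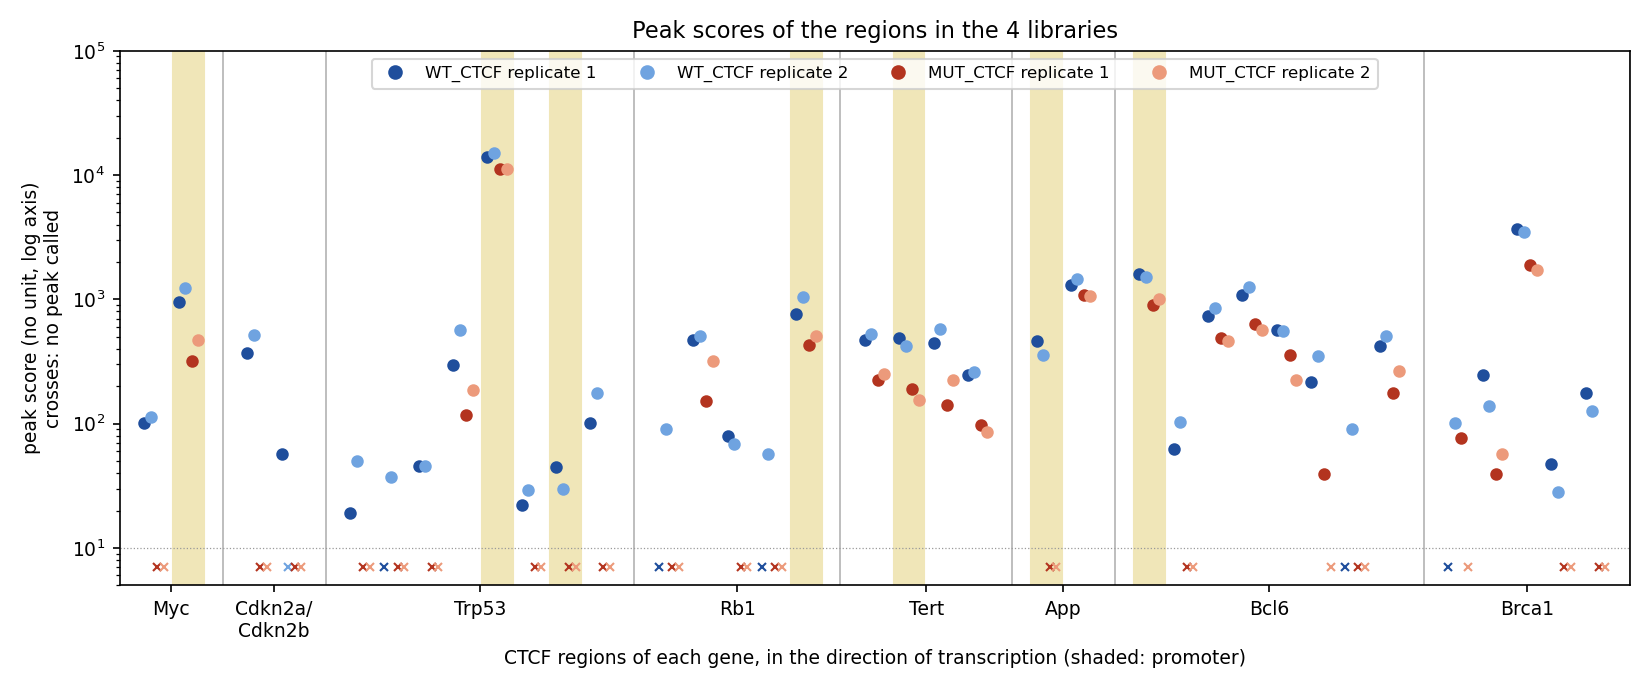
Peak scores (log axis, no unit) of the 36 regions in the 4 libraries, grouped by gene and ordered in the direction of transcription, with promoter regions shaded. Crosses below the dotted line mark libraries without a peak. Dark and light blue points (WT_CTCF) lie above red and orange points (MUT_CTCF) in all 17 regions called in 4 libraries.

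Scores were compared with limma on log2 scores over the 30317 regions called in all 4 libraries, with Benjamini-Hochberg adjustment over all of them. On the deposited scale 15 of the 17 regions of these genes were lower in MUT_CTCF and 0 were higher at an adjusted p below 0.05, where 90.4% of all regions tested were lower and 0.0627% higher. At an unadjusted p below 0.05, 27576 of all regions passed. The median log2 difference, MUT_CTCF minus WT_CTCF, was -1.08 over the 17 regions and -1.18 over all regions. Both WT_CTCF scores were above both MUT_CTCF scores in 17 of 17 regions, as in 96.2% of all regions. The share called lower at these genes was close to that of the whole table. The calls depended on the WT_CTCF libraries, while the size of the fall changed little. Few or none of the 17 regions passed without WT_CTCF replicate 1 or replicate 2, and fewer regions of the table. The median log2 difference was then -1.17 or -0.99 over the 17 regions and -1.24 or -1.13 over all regions.

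The 2 regions that did not pass were the Trp53 promoter region, with a log2 difference of -0.36 ± 0.18 (SE, limma adjusted p = 0.0964), and the App 3′ end, with -0.37 ± 0.18 (SE, limma adjusted p = 0.0967). With an intensity trend and robust prior in limma these 2 passed as well, so that 17 of 17 were lower, as were 92.0% of all regions. In linear terms their MUT_CTCF scores were 0.777 and 0.772 of the WT_CTCF scores. The promoter regions that passed had log2 differences of -1.48 ± 0.27 (Myc, SE, limma adjusted p = 0.00356), -1.39 ± 0.21 (Tert, SE, limma adjusted p = 0.00225), -0.94 ± 0.23 (Rb1, SE, limma adjusted p = 0.0102) and -0.71 ± 0.18 (Bcl6, SE, limma adjusted p = 0.0118). The Myc promoter region therefore kept 0.357 of its WT_CTCF score and that of Bcl6 0.611.

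To set each region against the shift that all regions shared, each library was centred on its median over the regions called in all 4, which was 569 and 620 in WT_CTCF and 263 and 250 in MUT_CTCF. On this relative scale 0 of the 17 regions were lower and 0 higher at a limma adjusted p below 0.05, compared with 3.22% lower and 1.95% higher over all regions tested. At an unadjusted p below 0.05, 4 of the 17 passed, a share no larger than the 27.0% over all regions tested. The Trp53 promoter region had a relative log2 difference of 0.85 ± 0.18 (SE, limma adjusted p = 0.0502, 95% interval 0.41 to 1.28) and the App 3′ end one of 0.84 ± 0.18 (SE, limma adjusted p = 0.0508, 95% interval 0.40 to 1.27). They stood at the 96.2 and 96.1 percentile of all regions. Quantile normalization in place of centring lowered both values. The Trp53 promoter region then had 0.36 ± 0.175 (SE, limma adjusted p = 0.248) and the App 3′ end 0.69 ± 0.176 (SE, limma adjusted p = 0.0794). With the intensity trend and robust prior, these 2 and the Bcl6 promoter region were called higher, 3 of the 17, where 10.9% of all regions were. In the fit without it, next came the Bcl6 promoter region at 0.50 ± 0.20 (SE, limma adjusted p = 0.166) and the Bcl6 intronic region with the complete core at 0.48 ± 0.18 (SE, limma adjusted p = 0.154).

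At the low end of the relative scale was a weak region 14948 bp upstream of Brca1 (chr11:101427965-101428484), named here after its values were seen. It scored 244 and 138 in WT_CTCF and 39 and 57 in MUT_CTCF. Its relative log2 difference was -0.75 ± 0.36 (SE, limma adjusted p = 0.232, 95% interval -1.60 to 0.10), at the 8.17 percentile. The Myc promoter region stood at -0.27 (95% interval -0.90 to 0.35), and the 4 Tert regions between -0.31 and 0.14. The interval at Myc thus spans both a fall and a rise against the shared shift.

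**Figure D3:**
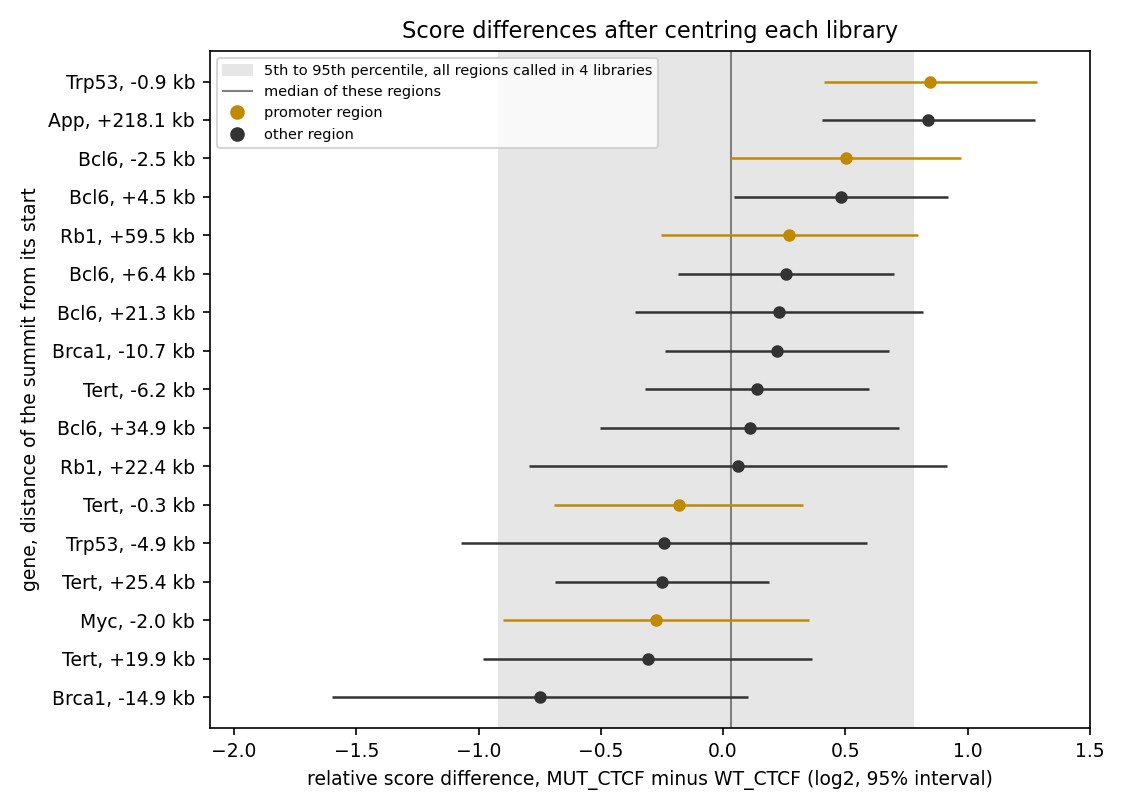
Relative log2 score difference (MUT_CTCF minus WT_CTCF, each library centred on its median) of the 17 regions called in 4 libraries, with 95% intervals from limma. Gold points are promoter regions, the grey band spans the 5th to the 95th percentile of all 30317 regions tested, and the line is their median. The Trp53 promoter region and the App 3′ end lie just above the band, and the other 15 points lie within it.

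The peaks called in MUT_CTCF were also narrower. Both WT_CTCF peaks were wider than both MUT_CTCF peaks in 16 of the 17 regions, and in 84.8% of all regions called in 4 libraries. At the Myc promoter region the peaks were 583 and 603 bp wide in WT_CTCF and 452 and 415 bp wide in MUT_CTCF. The exception was the Trp53 promoter region, with 800 and 1371 bp in WT_CTCF and 835 and 752 bp in MUT_CTCF. The mean summits of the groups were a median of 8 bp apart over the 17 regions, compared with 8.5 bp over all regions, and at most 26.5 bp.

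The regions at the Cdkn2b and App starts stood out among those called only in WT_CTCF by their pooled means of 318 and 270. The highest pooled mean among the other 17 regions without a call in all 4 libraries was 105. Both are rich in G and C, with a G+C content of 62.8% and 69.7%. Among all regions with a pooled mean at least as high as that of the App start, 0.953% were called in both WT_CTCF libraries but in no MUT_CTCF library. Of the 9 regions of these genes at or above that limit, the 7 with a G+C content of at most 51.0% were called in all 4 libraries and these 2 were not. Over the table the loss of calls also went with G+C content, but was not complete. Of 10000 such regions with a G+C content below 60%, 8 (0.080%) were called in both WT_CTCF libraries only, compared with 91 of 383 (23.8%) at 60% or above, where 264 (68.9%) were called in all 4 libraries. The limits were set after these values were seen, and the shares are given as a description.

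The scores of the 2 regions were low for their pooled means. Among 5945 regions with a pooled mean of 250 to 350 and a G+C content below 60%, the mean of the WT_CTCF scores had a median of 961 (25th to 75th percentile, 813 to 1110). Among the 163 with a G+C content of 60% or above it was 489 (411 to 611). The scores of 372 and 516 at Cdkn2b and of 458 and 355 at App lie near the second of these ranges. G+C content thus moved with both the score and the call, and its part in the lost calls at Cdkn2b and App was not tested.

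**Figure D4:**
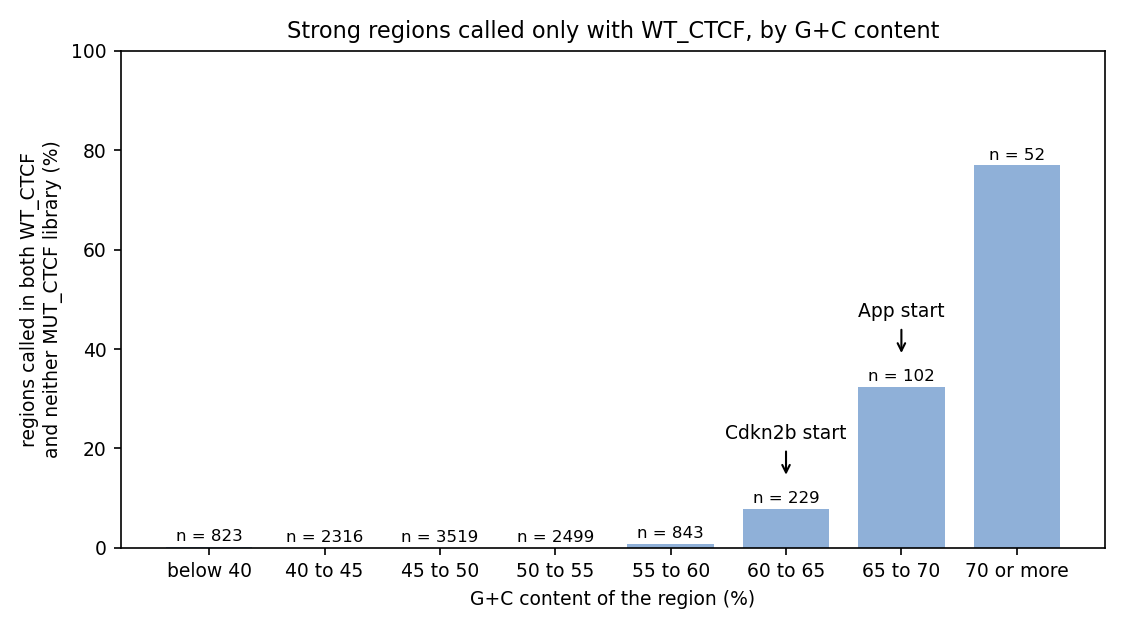
Share of regions called in both WT_CTCF and neither MUT_CTCF library by G+C content, over the 10383 regions with a pooled mean at least as high as that of the App start; n is the number of regions in a bin. The share is 7.86% in the bin that holds the Cdkn2b start (60 to 65%) and 32.4% in that of the App start (65 to 70%), and at most 0.712% in each bin below 60%.

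Some of the regions in and around these genes had similar sequences around the core. Over all 34930 regions with a core within 1 mismatch, the commonest cores were CCAGAAGAGGGCA, in 8244 regions, and CCAGAAGAGGGCG, in 4480. The next commonest core was in 734. These 2 recurring cores were held by 10 of the 22 regions with a core, at Trp53, Rb1, Tert, Bcl6 and Brca1, while 36.4% of all regions with a core held one. The 20 bases on either side of the core, which is in capitals, are printed with it because they recur as well. The first line gives the most frequent base at each position over all 12724 regions with a recurring core, and the 2 that follow are identical over all 53 bases.
Most frequent base: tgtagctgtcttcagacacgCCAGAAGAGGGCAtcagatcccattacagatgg
Tert, chr13:73789895-73789907, plus strand: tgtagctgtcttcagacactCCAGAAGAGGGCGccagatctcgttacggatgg
Brca1, chr11:101428215-101428227, minus strand: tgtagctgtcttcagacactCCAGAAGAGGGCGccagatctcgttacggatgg
Trp53, chr11:69387086-69387098, minus strand: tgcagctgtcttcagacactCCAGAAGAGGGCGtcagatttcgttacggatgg
Brca1, chr11:101403426-101403438, plus strand: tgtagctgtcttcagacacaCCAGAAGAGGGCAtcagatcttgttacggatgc
Tert, chr13:73758290-73758302, minus strand: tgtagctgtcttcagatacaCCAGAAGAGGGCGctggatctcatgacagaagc
Rb1, chr14:73666173-73666185, minus strand: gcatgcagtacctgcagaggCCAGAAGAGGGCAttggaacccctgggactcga
Pairs of the 10 sites had 23 to 53 of 53 bases in common. In the Trp53 line 50 of 53 bases are the same as in the first Tert line. The last line, from the Rb1 promoter region, shares the core but only 16 of the 40 bases around it with the most frequent sequence. B2 elements, short repeats that have spread through rodent genomes, are known for carrying CTCF sites. Repeats were not annotated here.

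Over the 10 regions with a recurring core, 16 to 35 of the 40 flanking bases were the most frequent ones. Over all regions the median was 25 of 40 with a recurring core and 11 with another core. Recurring cores went with a lower pooled mean and with fewer calls in all 4 libraries. The authors removed reads that aligned to several places, and the part of this step at repeated sequences was not tested. Over all regions the median pooled mean was 63.8 with a recurring core and 179 with another core within 1 mismatch, and 39.6% of the first and 73.3% of the second were called in all 4 libraries. Among the regions of these genes, 4 of 10 with a recurring core were called in all 4 libraries and 8 of 12 with another core. Both recurring cores have 1 mismatch, while the other cores include the full matches. Of the 7300 regions of the table with a full match, 6120 were called in all 4 libraries. Recurrence and mismatch were not told apart here. The identical sites of Tert and Brca1 had scores of 244 and 259 and of 244 and 138 in WT_CTCF. In MUT_CTCF they scored 97 and 86 at Tert and 39 and 57 at Brca1. The same 53 bases thus carried peaks in all 4 libraries at both genes. These cores and their comparison were chosen after the sequences were seen.

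**Figure D5:**
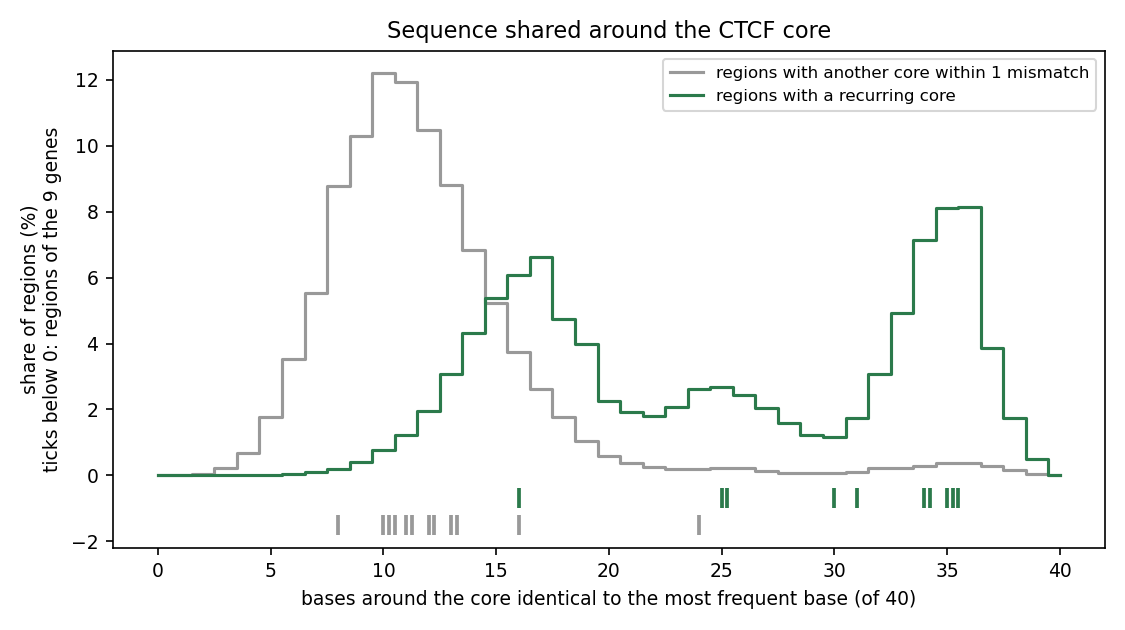
Number of bases, of the 40 around the core, that are the most frequent base at their position, as the share of regions (%) with a recurring core (green) or another core within 1 mismatch (grey). Ticks below 0 mark the 22 regions of the 9 genes that hold such a core; those with a recurring core lie between 16 and 35, and stacked ticks are moved slightly to the right.

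As a wider setting, 48 other genes of the same pathways were taken with the same rule, of which 45 had a region, 192 in all. Of these 192, 95 (49.5%) were called in all 4 libraries and 43 (22.4%) in both WT_CTCF libraries only. Over all regions the shares were 52.6% and 19.5%. On the deposited scale 89 of the 95 were lower in MUT_CTCF and 0 higher, close to the 90.4% lower over all regions tested. By pathway, to be read against that share, the counts were 31 of 33 among the partners of Rb1 (cyclins, their kinases and inhibitors, and E2F factors), 21 of 23 in the p53 pathway, 12 of 13 in the Myc network, 7 of 8 at telomere genes and 6 of 6 at DNA repair genes. All 5 at App relatives and all 7 at Bcl6 relatives were lower as well.

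On the relative scale 3 of the 95 passed, 2 lower and 1 higher, which is no more often than the 3.22% and 1.95% over all regions tested. They are named because they are few, 2 at Mycn and 1 at Mdm2. Mycn encodes the N-Myc protein, a relative of Myc. Its promoter region (chr12:12949090-12949849) scored 493 and 475 in WT_CTCF and 61 and 94 in MUT_CTCF. This was a relative log2 difference of -1.46 ± 0.27 (SE, limma adjusted p = 0.0381), a fall beyond the shared shift. A second Mycn region, outside the promoter (chr12:12945591-12946169), scored 272 and 276 in WT_CTCF and 341 and 251 in MUT_CTCF. There the groups overlapped, and the relative log2 difference was 1.31 ± 0.21 (SE, limma adjusted p = 0.0321). At Mdm2, which encodes the ligase that degrades p53, a non-promoter region (chr10:117113836-117114484) scored 536 and 620 in WT_CTCF and 104 and 114 in MUT_CTCF, with a relative log2 difference of -1.19 ± 0.19 (SE, limma adjusted p = 0.0321). Without either WT_CTCF replicate no region of the table passed on this scale.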

How the data were processed

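CTCF ChIP-seq lists of 4 libraries, 2 per genotype, were analysed. The sample titles gave the group and the replicate number. The authors trimmed reads with Trim Galore 0.4.4, aligned them with Bowtie2 2.3.4.1 to mm9, and scaled coverage by a Drosophila spike-in, chromatin added as an external reference. They called peaks in each library with MACS2 2.1.1.20160309. The deposited lists give a score and a summit offset in bp per peak. The deposited region table gives the pooled mean signal, the authors' mean of scaled reads over the 4 libraries. Its other columns hold the authors' comparison of the genotypes (log2 fold change, its standard error, a Wald statistic, p and adjusted p from DESeq2 1.38.0). They were not used, so no comparison of read counts is given. The number of columns of per-sample values left out was 0.

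Each peak was assigned to the region it overlapped by at least 1 bp. Regions called in all 4 libraries were fitted with limma 3.58.1 (R 4.3.3) on log2 scores with empirical Bayes moderation, over the whole table and tested on simulated data. Numbers of calls were compared by an exact permutation test. Sequence was read from the NCBIM37 reference, the assembly of mm9, and annotation from GENCODE vM1. Since the read depth is unknown, counting error has no interval. Named were every promoter region, the 2 other regions of each gene with the highest pooled mean, and any region past the threshold on the relative scale. The genes and lists were chosen with earlier results of these data known. Python 3.11.15 was used.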

Additional observations from a re-analysis of the deposited data

How the results depend on the processing

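The fall in the number of regions called in MUT_CTCF kept its direction under each alternative run. The difference of -15 regions became -8 when peaks under the pooled median score were left out, -19 with a reciprocal overlap of 50%, -9 over gene bodies alone, -25 within 50 kb, -10 without regions that hold a recurring core (chosen after seeing the data) and -17 to -13 without one replicate. Regions called in all 4 libraries numbered 8 with this stricter score, 8 over gene bodies alone, 27 within 50 kb and 17 to 18 without one replicate. Those called in both WT_CTCF libraries only numbered 5 with the stricter score, 19 within 50 kb and 12 to 16 without one replicate, and those called in MUT_CTCF alone stayed at 0 to 0. The sets of regions differ in size, and the shares of all regions under these rules are not given. These counts therefore do not show whether these genes differ from the whole table. The reciprocal overlap of 50% drops narrow peaks, and peaks were narrower in MUT_CTCF, so the -19 is not independent of peak width. The core in full was in 2 regions. A replicate block by number left the difference at -15, and an exact sign-flip test of the 2 pairs, which cannot go below it, gave p = 0.5. The scores of replicates with the same number did not deviate together (r = -0.0033), and the libraries were treated as unpaired. On the relative scale the replicate block left 376 regions of the table higher, and it changed no other call at these genes or count by over 1.5 times.

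Without one replicate, which leaves a lone library assumed to vary like the others, regions of these genes lower on the deposited scale numbered 0 to 12 and higher 0 to 0, and over all regions 0 to 22295 were lower and 0 to 11 higher. On the relative scale 0 to 0 were lower and higher at these genes, and 0 to 1039 lower and 0 to 353 higher over the table; both counts were 0 without either WT_CTCF replicate. At an adjusted p below 0.01, 9 of 17 regions of these genes were lower on the deposited scale. Of the 30317 regions tested, 21547 were lower and 6 higher there. On the relative scale 0 were lower and 0 higher. With uncalled libraries set to the lowest score, 24 of 36 regions of these genes were lower on the deposited scale, where 33656 of 57662 were. On the relative scale 5 of the 36 were lower, where 6016 of the table were lower and 163 higher. All 5 were regions called in both WT_CTCF libraries only. A region without a call in MUT_CTCF was given the same lowest score in both MUT_CTCF libraries, with no spread on the deposited scale. These counts thus follow in part from the missing calls and are no separate test. The intensity trend gave 3 regions of these genes higher and, over the table, 2597 lower and 3316 higher. Quantile normalization gave 628 lower and 380 higher, and centring on the strongest 10% gave 1770 lower. The cause was not tested.

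Relative differences changed sign in 6 regions under some alternative. Without one replicate each they ranged from -0.60 to 0.053 at the Myc promoter region, from -0.69 to 0.071 at the Tert coding region, from -0.65 to 0.16 at the Trp53 region starting at 69388683 (0.13 without MUT_CTCF replicate 1), from -0.070 to 0.53 at the Bcl6 region starting at 23967244, from -0.51 to 0.63 at the Rb1 region starting at 73702945 and from -0.22 to 0.43 at the Bcl6 region starting at 23953367. The extremes came without a MUT_CTCF replicate, apart from those of the Trp53 region. With centring on the strongest 10% the values at Rb1 and at the Bcl6 region starting at 23953367 were -0.068 and -0.021. Differences on the deposited scale kept their sign in 170 of 170 alternatives. Every count of calls is limited by a read depth that is unknown.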
